A study of Mus musculus with 11 samples.

Results

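Cycling endothelial cells (ECs) of the mouse cerebral cortex at postnatal day 10 were described here. They were chosen by their own transcripts. An EC was a cell with at least 3 unique molecular identifiers (UMIs, 1 per captured transcript copy) of Cldn5, Flt1 and Pecam1 together, at most 2 of the mural genes Rgs5 and Vtn and at most 2 of the immune genes C1qa, C1qb and Ptprc. An EC was called cycling when it held at least 4 UMIs of the 6 genes Top2a, Mki67, Birc5, Cdk1, Ccnb2 and Rrm2. This gate found 228 cycling ECs among 3154 juvenile ECs, 13507 juvenile cells and 50625 cells of the whole series. Juvenile 1 held 59 of 501 ECs, Juvenile 2 held 36 of 449, Juvenile 3 held 77 of 1104 and Juvenile 4 held 56 of 1100. Since the gate used 6 cell-cycle genes, their levels and those of the other cell-cycle genes are given as a description with no test. Genes outside the cell cycle were compared, within each library, with the ECs under the gate, called the other ECs.

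In growing brain tissue the vascular network extends by sprouting, in which tip ECs lead and the ECs behind them divide. A dividing cell copies its DNA in S phase with enzymes that supply nucleotides and replicate chromosomes, then condenses and separates the chromosomes in G2 and M phase. Cyclins bound to cyclin-dependent kinases drive these steps, and inhibitors of the kinases hold cells outside the cycle. ECs of the brain are also zoned along the vessel from artery through arteriolar (CapA) and venular (CapV) capillary to vein, and they carry the tight junctions and transporters of the blood-brain barrier.

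The juvenile samples were untreated C57BL/6 pups, and the study's methods name female mice. Cells were dissociated from cortex with papain and Liberase, depleted of myelin and captured with the 10x 3′ v2 chemistry, in 4 libraries from pooled tissue of 6 mice. Adult samples (7 to 11 weeks, untreated) were 3 libraries with tissue of 6 mice pooled. Aged samples (18 months) were 2 libraries with tissue of 3 mice. EAE samples (7 to 11 weeks) were 2 libraries with tissue of 3 mice. EAE is experimental autoimmune encephalomyelitis, an induced inflammation of the central nervous system, here at its peak. Adult, aged and EAE samples were used only for the share of cycling cells. Nothing in the labels says that juvenile libraries came from separate animals, so p-values measure the spread between these libraries, which may be technical.

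Juvenile libraries held 16072895 to 23425535 UMIs. Summed over the other ECs, Juvenile 1 and 2 differed by a chi-square of 2.94 per degree of freedom and Juvenile 3 and 4 by 2.27, against 9.08 to 13.1 across these pairs and 1.502 to 3.64 between the odd and even cells of a juvenile library, so the 4 libraries resembled 2 pairs. Juvenile libraries shared 10 to 20 cell barcodes with each other. Cycling ECs were deeper than the other ECs of their library, with median UMIs per cell of 12507, 12163, 10439 and 10611.5 (in this and all later lists, Juvenile 1 to 4 in that order) against 6434, 7008, 5655 and 4990.5. Levels are therefore given as CPM, the UMIs of a gene per 1000000 UMIs summed over the cells of a population in a library. For single genes in ECs the total was that of the genes tested, scaled by edgeR's TMM factors of 0.981 to 1.03. Sums over lists of markers or genes used all UMIs, unscaled. A gene that rose or fell did so in CPM, as a share of UMIs, and its UMIs per cell were not compared. Each gene list was also fitted against other ECs matched for depth.

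Transcripts of other cell types were in both populations. The 9 microglial markers summed to 121 to 331 CPM in cycling and 162 to 366 CPM in other ECs. The 13 endothelial markers summed to 5065 to 6079 CPM in cycling ECs and 7370 to 8540 CPM in other ECs. At 1500 UMIs per cell, 55 of 59, 32 of 36, 71 of 77 and 53 of 56 cycling ECs held at least 3 endothelial UMIs, while 0, 1, 1 and 0 held 3 microglial UMIs. Some deep cells passed the EC gate on few UMIs. A cycling cell of 21021 UMIs in Juvenile 3 held 3, 0 and 0 UMIs of Cldn5, Flt1 and Pecam1. Another, of 18879 UMIs in Juvenile 4, held 2, 1 and 0. Such cells may not be endothelial, and they were counted among the cycling ECs. The 5 markers of choroid plexus epithelium, led by Ttr, summed to 3492, 4092, 16449 and 33331 CPM in cycling and 18950, 27908, 37660 and 37219.5 CPM in other ECs. The 5 erythrocyte markers summed to 550.3, 657, 5160.3 and 61.1 CPM against 6523, 3464, 2558 and 844 CPM. In Juvenile 3, 11 of 77 cycling ECs held at least 3 erythrocyte UMIs, and 1 did at 1500 UMIs per cell. Mural markers (11 genes) summed to 7.84 to 51.2 CPM in cycling and 22.0 to 261 CPM in other ECs, and those of perivascular macrophages (6 genes) to 6.98 to 19.3 and 11.6 to 27.4 CPM. The 10 astrocyte markers summed to 186 to 444 and 302 to 565 CPM, the 9 of oligodendrocytes to 75.2 to 132 and 92.7 to 152 CPM, the 8 of neurons to 47.6 to 129 and 93.6 to 96.9 CPM, and the 7 of fibroblasts to 29.8 to 189.9 and 82.9 to 139.6 CPM. Over the cycling ECs, Cd163 of the macrophage list and Rgs4 of the mural list had no UMI, and every other marker had at least 1. The comparisons were repeated with limits on the transcripts of mural, immune, glial, neuronal and fibroblast cells, and these values stand beside each list. Choroid plexus and erythrocyte transcripts were not limited by their markers in these repeats. A repeat took ECs with at least 5 endothelial marker UMIs, and more of these than of the limited types' markers. There the choroid plexus markers had a median log2 difference (cycling minus other ECs) of -0.14, against -1.36 over all ECs. Against other ECs matched for depth it was -2.05. The erythrocyte medians were -1.59, -1.65 and -0.99 in that order. What part these transcripts had in the gene comparisons was not tested.

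The promoters of the 6 gate genes are shown because these genes define the cells. Each line gives the 250 bases before the transcription start of the RefSeq annotation (GRCm38.p6), 5′ to 3′. Capitals mark TTTGAA or its reverse complement TTCAAA (the core of the CHR, a cell-cycle element) and CCAAT or its reverse complement ATTGG (the CCAAT box), and no base fell in both.
Top2a, chr11:99024190-99024439, minus strand: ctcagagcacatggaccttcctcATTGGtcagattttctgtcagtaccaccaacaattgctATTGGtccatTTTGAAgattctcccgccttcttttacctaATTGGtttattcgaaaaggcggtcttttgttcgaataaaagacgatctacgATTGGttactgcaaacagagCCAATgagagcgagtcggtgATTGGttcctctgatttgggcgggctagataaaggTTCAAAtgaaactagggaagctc
Mki67, chr7:135716380-135716629, minus strand: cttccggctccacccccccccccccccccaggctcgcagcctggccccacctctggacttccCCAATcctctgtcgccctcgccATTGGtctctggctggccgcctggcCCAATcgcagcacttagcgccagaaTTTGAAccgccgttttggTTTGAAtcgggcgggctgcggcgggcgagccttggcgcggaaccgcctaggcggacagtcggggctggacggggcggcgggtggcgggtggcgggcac
Birc5, chr11:117848987-117849236, plus strand: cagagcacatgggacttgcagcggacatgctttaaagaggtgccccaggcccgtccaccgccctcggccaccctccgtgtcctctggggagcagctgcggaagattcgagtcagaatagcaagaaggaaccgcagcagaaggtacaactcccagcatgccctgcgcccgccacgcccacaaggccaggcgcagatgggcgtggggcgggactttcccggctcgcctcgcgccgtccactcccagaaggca
Cdk1, chr10:69352913-69353162, minus strand: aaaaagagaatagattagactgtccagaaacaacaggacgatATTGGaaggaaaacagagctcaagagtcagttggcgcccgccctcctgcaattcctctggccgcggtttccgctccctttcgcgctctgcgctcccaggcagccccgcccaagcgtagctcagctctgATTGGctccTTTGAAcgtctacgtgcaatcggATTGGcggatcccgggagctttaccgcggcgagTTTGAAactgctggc
Ccnb2, chr9:70421555-70421804, minus strand: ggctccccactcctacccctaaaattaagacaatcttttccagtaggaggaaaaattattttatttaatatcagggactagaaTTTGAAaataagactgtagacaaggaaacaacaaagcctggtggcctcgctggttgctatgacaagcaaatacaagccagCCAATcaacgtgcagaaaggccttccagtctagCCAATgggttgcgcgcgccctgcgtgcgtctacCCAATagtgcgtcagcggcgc
Rrm2, chr12:24708004-24708253, plus strand: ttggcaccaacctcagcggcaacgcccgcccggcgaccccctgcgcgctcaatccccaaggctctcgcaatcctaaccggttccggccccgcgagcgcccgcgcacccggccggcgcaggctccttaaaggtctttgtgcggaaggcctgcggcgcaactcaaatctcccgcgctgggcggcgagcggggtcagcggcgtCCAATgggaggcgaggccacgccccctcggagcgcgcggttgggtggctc

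Top2a, the topoisomerase that untangles replicated DNA, held 2 matches to the CHR core, the nearer 23 to 18 bases before the start, and 6 to the CCAAT box. Mki67, a coat protein of mitotic chromosomes, held 2 and 3, and Cdk1, the kinase that drives entry into mitosis, 2 and 3. Ccnb2, a cyclin partner of Cdk1, held 1 and 3. Rrm2, a subunit of ribonucleotide reductase, held 1 CCAAT match and no CHR match, and Birc5, which encodes the survivin subunit of the chromosomal passenger complex, held neither in this window. Among all 32851 RefSeq promoters of this length and 27025 gene symbols, 15.99% held the CHR core, 33.8% the CCAAT box and 5.55% both. The G2/M list had promoters for 49 of its 58 measured genes. Of these 57 promoters 31.6% held the CHR core, 77.2% the CCAAT box and 26.3% both. In the S list (32 of 44 genes, 37 promoters) the shares were 16.2%, 56.8% and 10.8%. Arterial genes (12 of 17 genes, 13 promoters) had 15.4% and 30.8% for the CHR core and the CCAAT box. Barrier transporters (19 of 24 genes, 29 promoters) had 24.1% and 20.7%. These matches are letters in a window, and binding was not measured.

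The gate genes were held at many UMIs per cell rather than at the threshold. The median cycling EC carried 19, 16, 19 and 19 UMIs of the 6 genes, and the highest carried 87, 72, 61 and 59. Just inside the gate, 8, 4, 5 and 2 ECs had 4 UMIs, and just outside it, 13, 10, 14 and 14 had 3. ECs with none numbered 304, 284, 812 and 839. Top2a stood at 289, 321, 343 and 331 CPM in the cycling ECs and 7.23, 7.34, 3.28 and 3.42 CPM in the other ECs. Birc5 stood at 382, 402, 482 and 487 CPM in the cycling ECs and 3.76, 3.52, 3.28 and 3.10 CPM in the other ECs. Mki67, the most common histological mark of division, stood at 89.1, 109.9, 121 and 106 CPM in the cycling ECs and 3.76, 1.17, 0.447 and 0.489 CPM in the other ECs. Of the 6 genes, Cdk1 was the one that the other ECs held most of, with 314, 275, 436 and 392 CPM in the cycling and 27.2, 26.7, 28.2 and 27.5 CPM in the other ECs. Ccnb2 ranged from 255 to 292 CPM and Rrm2 from 277 to 352 CPM in cycling ECs, against at most 7.81 and 9.10 CPM.

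The remaining cell-cycle genes followed, and both lists named here were counted as a description. Of the S list, 43 of 44 measured genes passed the filter on low values, with a median log2 difference (cycling minus other ECs) of 2.80. All 58 genes of the G2/M list passed it, with a median of 5.03. Thymidine kinase Tk1 stood at 172, 171, 227 and 228 CPM in the cycling ECs and 8.68, 5.58, 6.26 and 5.86 CPM in the other ECs. Tyms, which makes thymidylate, stood at 160.0, 147, 224 and 189 CPM in the cycling ECs and 20.3, 12.6, 15.05 and 17.3 CPM in the other ECs. In mitosis, Ccnb1, the other B-type cyclin partner of Cdk1, stood at 142, 90.1, 164 and 141 CPM in the cycling ECs and 1.74, 2.94, 2.23 and 2.12 CPM in the other ECs. Hmgb2, a chromatin protein that is abundant in dividing cells, stood at 1587, 1492, 1576 and 1680.1 CPM in the cycling ECs and 144, 156, 124 and 128 CPM in the other ECs.

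Most cycling ECs held more G2/M than S transcripts. G2/M UMIs were the more numerous in 49, 30, 59 and 44 cells, S UMIs in 10, 6, 17 and 11, and they were equal in 0, 0, 1 and 1. The median cycling EC held 37, 36.5, 39 and 31.5 S UMIs and 77, 104.5, 84 and 100.5 G2/M UMIs, against 3 to 4 S and 4 to 6 G2/M UMIs in the other ECs. The plot of S against G2/M UMIs per cell shows no gap between cells rich in S and cells rich in G2/M transcripts. The lists differ in length and in the genes they hold, so these counts do not give the time spent in each phase. The cells were also chosen by the gate genes, which are mostly mitotic by the roles given above. Gate genes summed to 1216, 381, 762 and 1255 CPM in the cells with more S UMIs. In those with more G2/M UMIs they summed to 1714, 1798, 2290 and 2026 CPM. The counts of both kinds of cell therefore depend on the gate.

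**Figure D1:**
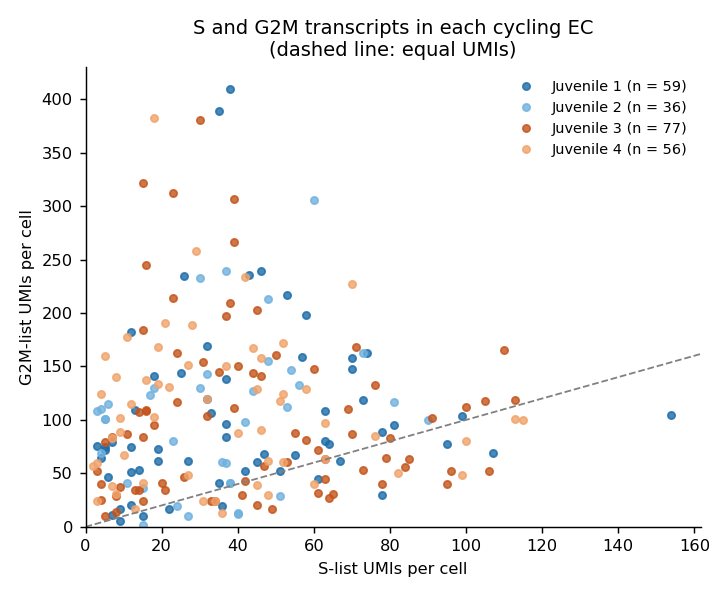
UMIs of the S list (horizontal axis) and the G2/M list (vertical axis) in each of the 228 cycling ECs, coloured by juvenile library, with equal UMIs on the dashed line. Most cells lie above the line, 49 of 59, 30 of 36, 59 of 77 and 44 of 56, and the cloud is continuous.

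Genes that control the cycle moved in both directions, and they too are described without a test because they follow the gate. Cdk4, the kinase of the G1 cyclins, stood at 396, 327, 463 and 404 CPM in the cycling ECs and 199, 189, 197 and 189 CPM in the other ECs. E2f1, a transcription factor of S-phase genes, stood at 31.0, 24.2, 39.5 and 31.7 CPM in the cycling ECs and 2.89, 3.23, 2.38 and 3.26 CPM in the other ECs, and Foxm1, a factor of G2/M genes, at 32.3, 33.0, 33.5 and 34.9 CPM in the cycling ECs and 0.868, 1.17, 1.19 and 0.977 CPM in the other ECs. Each of these was higher in the cycling ECs of all 4 libraries. Among kinase inhibitors, Cdkn2c (p18) stood at 122.6, 143, 169 and 155 CPM in the cycling ECs and 15.3, 18.8, 16.5 and 17.3 CPM in the other ECs and Cdkn2d (p19) at 114, 154, 145 and 147 CPM in the cycling ECs and 46.3, 50.8, 47.1 and 47.7 CPM in the other ECs. Cdkn1c (p57) went the other way, with 95.5, 61.5, 69.4 and 88.8 CPM in the cycling ECs and 257, 202, 274 and 279 CPM in the other ECs. Cdkn2b (p15) was the lowest relative to the other ECs, with 23.2, 13.2, 22.7 and 36.5 CPM in the cycling ECs and 95.8, 97.1, 153 and 133 CPM in the other ECs. Cdkn1a (p21) stood at 174, 167, 176 and 168 CPM in the cycling ECs and 296, 291, 255 and 228 CPM in the other ECs, whereas Cdkn1b (p27) overlapped between the populations, with 38.7, 63.7, 63.4 and 39.6 CPM in the cycling ECs and 45.1, 50.5, 41.9 and 41.2 CPM in the other ECs. Thus p18 and p19 were higher and p57, p15 and p21 lower in the cycling ECs of each library. Ccnd1, the cyclin that couples growth signals to the cycle, was lower, with 67.1, 61.5, 74.2 and 65.0 CPM in the cycling ECs and 95.5, 93.0, 94.5 and 90.4 CPM in the other ECs. Btg2, an antiproliferative gene, stood at 179, 171, 102 and 116 CPM in the cycling ECs and 251, 261, 207 and 214 CPM in the other ECs.

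Whether dividing ECs are a feature of the growing vessel bed was addressed by their share at each age. In juvenile libraries 11.8%, 8.02%, 6.97% and 5.09% of ECs were cycling, a mean of 7.96% (SD 2.81, n = 4). With Juvenile 1 and 2 averaged, and Juvenile 3 and 4 averaged, the SD was 2.73 (n = 2). Exact 95% binomial intervals ran from 9.09% to 14.9%, 5.68% to 10.9%, 5.54% to 8.64% and 3.87% to 6.56%. In adult libraries 0 of 610, 2 of 2201 and 4 of 2327 ECs passed the same gate, where 0 of 610 allows a share of up to 0.492%. The EC sums of Adult 2 and Adult 3 differed by a chi-square of 2.29 per degree of freedom, less than the 2.49 and 2.63 between the odd and even cells of either, so they were counted as 1 sample, which gave a mean adult share of 0.0657% (SD 0.0929, n = 2). The groups did not overlap, and the difference was 7.90 percentage points. It is given with no test, because the share counts cells by the gate and day 10 was chosen with it known. Aged libraries held 6 of 2936 and 1 of 2710 cycling ECs (0.204% and 0.0369%), and EAE libraries 6 of 3043 and 1 of 2854 (0.197% and 0.0350%), so that each of these 4 libraries lay below every juvenile library as well.

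The shares were also taken at equal depth. After each cell was thinned to 1500 UMIs and the gate was set to 2 UMIs, with 5, 4, 12 and 24 shallower ECs left out, the juvenile shares were 6.45%, 6.52%, 4.95% and 4.28%, and those of the adult libraries were 0%, 0.142% and 0.183%. Choroid plexus epithelial cells, which were deeper than ECs with median UMIs of 8226 to 9482 per juvenile library, passed the unthinned gate in 3.91%, 1.80%, 1.80% and 0.455% of cells and the thinned gate in 1.56%, 1.80%, 0.654% and 0.152%. Oligodendrocytes passed the unthinned gate in none of 13, 21, 5 and 5 cells, where 0 of 21 allows up to 14.3%. Intervals on shares cover counting error only.

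Microglia of the same libraries, with at least 3 UMIs of C1qa, C1qb and Ptprc and few of the vessel and perivascular macrophage genes, served as the other dividing cell type. Their cycling share was 10.3%, 8.60%, 7.24% and 6.53%, and 10.5%, 9.56%, 7.56% and 7.21% after thinning. After thinning the EC share lay below the microglial share in each library, with differences of -4.06, -3.04, -2.61 and -2.93 percentage points and a mean of -3.16 (SD 0.628, n = 4). Without thinning the mean difference was -0.22 points, and ECs had the higher share in Juvenile 1 and the lower in the others. As these shares count cells by the gate, the difference is given with no test. Mural cells, the contractile cells around the endothelium, cycled at 5.47%, 6.01%, 2.94% and 2.30% without thinning. The microglial gate takes any cell with enough UMIs of C1qa, C1qb and Ptprc. Of the cells it took, 95.1% to 97.9% in juvenile libraries had a UMI of the microglial genes Tmem119 or P2ry12, against 59.0% and 62.3% in EAE, so it is read as microglia in the juvenile libraries only. In EAE, 4.11% and 3.77% of the cells it took passed the cycling gate, 65 of these 116 and 55 of these 102 with a UMI of Tmem119 or P2ry12, while 0.197% and 0.0350% of ECs did.

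**Figure D2:**
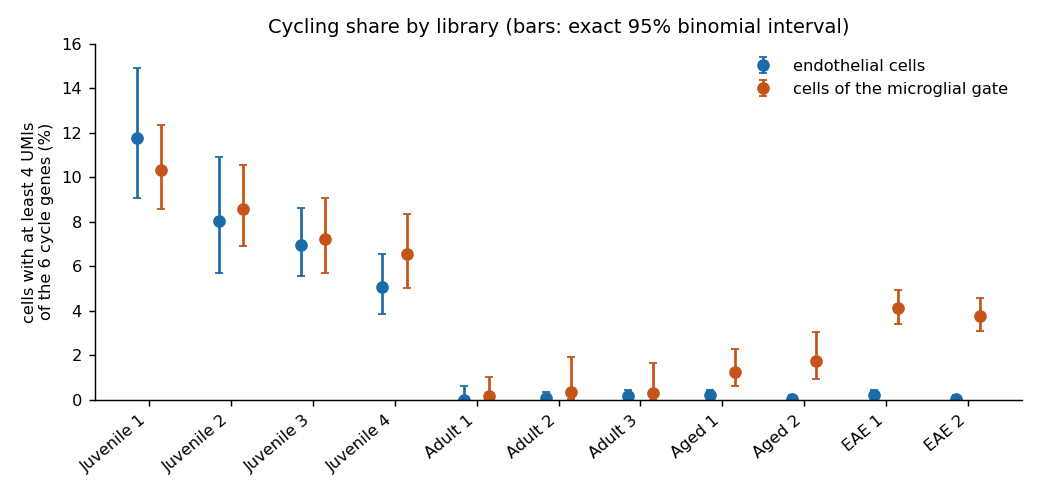
Percent of ECs (blue) and of cells of the microglial gate (orange) with at least 4 UMIs of the 6 gate genes in each of the 11 libraries, with exact 95% binomial intervals as bars. ECs stand at 5.09% to 11.8% in the 4 juvenile libraries and at most 0.204% in every other library, and the cells of the microglial gate in EAE stand at 4.11% and 3.77%.

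Transcript levels in cycling and other ECs of the same library were then compared over 10283 genes with edgeR's quasi-likelihood test, with the library as a block. At an adjusted p of 0.05, 1696 genes (16.5%) were higher and 1339 (13%) lower in cycling ECs. Without the cell-cycle lists and the gate genes, 15.6% of 10144 genes were higher and 13.1% lower, and the median log2 difference was -0.01, so a list of genes is read against these shares. With Juvenile 1 and 2 summed to 1 sample and Juvenile 3 and 4 to another, 1599 genes were higher and 1187 lower. DESeq2 called 1130 and 770. ECs without UMIs of the mural and immune gate genes and with at most 2 of the astrocyte, oligodendrocyte, neuron and fibroblast markers, called the strictly gated ECs, left 3, 1, 17 and 14 cycling cells and 3325 genes tested, of which 169 were higher and 155 lower. List counts there are read against these 169 and 155 of 3325 genes. The strictly gated ECs were 3 of 59, 1 of 36, 17 of 77 and 14 of 56 cycling ECs. Of the other ECs they were 78 of 442, 55 of 413, 354 of 1027 and 445 of 1044. The limits were UMI counts whatever the depth of a cell, and cycling ECs were deeper. What part depth had in the calls lost was not tested. Among the strictly gated ECs, 64 of the genes described here lost their call in the same direction. For 25 of the 64 the log2 difference was as large as over all ECs or larger, and for 39 it was smaller. Tmsb10, Id1, mt-Nd5, Tkt and Srm lost their call there with the direction reversed. ECs with more endothelial than other types' UMIs left 56, 32, 71 and 53 cycling cells. There 1682 genes were higher and 1309 lower, 4 of the genes lost their call in the same direction, and Prps2 lost it with the direction reversed. Other gates asked for 8 UMIs of the 6 genes, for 2 UMIs after thinning to 1500 UMIs (32, 29, 54 and 46 cycling cells), or for the highest share of S and G2/M UMIs without the 6 genes. The plot of list members shows the pattern by list. Arterial, capillary, tip, barrier, Notch and matrix lists lay mostly below zero, and nucleotide, ribosomal protein and ribosome biogenesis lists above it. Of the 13 endothelial markers, 10 fell and none rose (median -0.43). Against depth-matched ECs 11 of the 13 fell (median -0.35). Lists of endothelial genes are therefore read beside these markers too, and whether a list fell by more than they did was not tested. Gene lists and their members were chosen with earlier results of these data known, and their counts are descriptions.

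**Figure D3:**
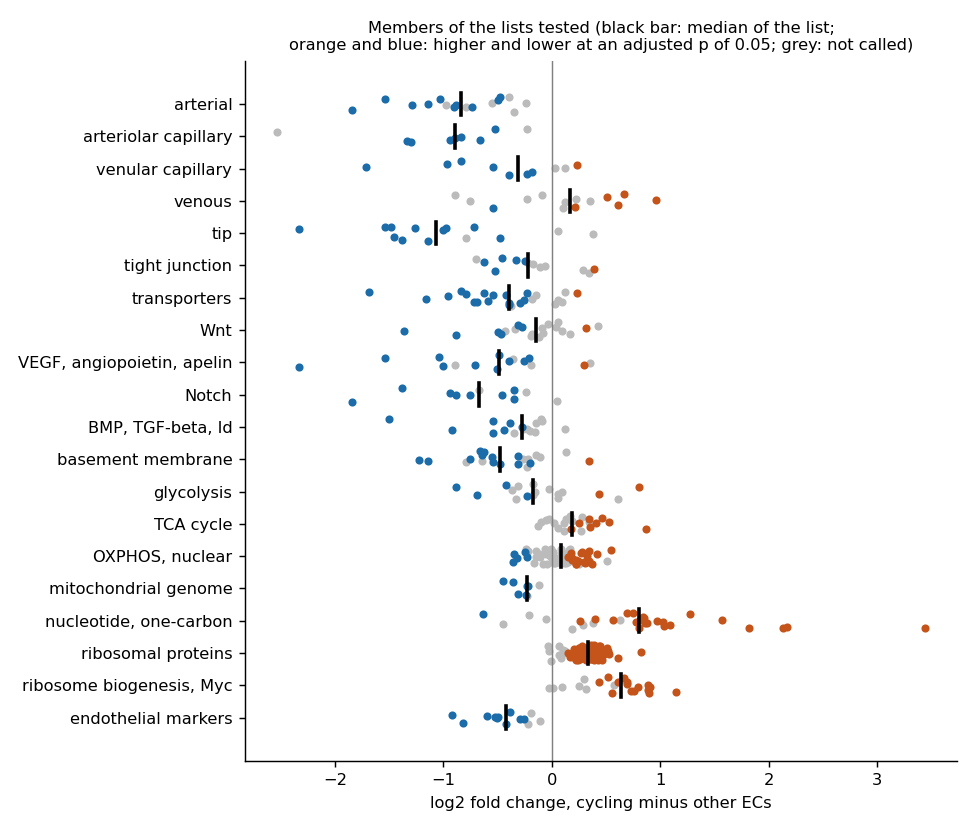
Log2 difference between cycling and other ECs (horizontal axis) for each tested member of the gene lists, with the list median as a black bar. Orange points were higher and blue points lower at an adjusted p of 0.05, and grey points were not called. The arterial median lies at -0.84, the tip median at -1.07, the endothelial marker median at -0.43 and the nucleotide and one-carbon median at 0.81.

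Arterial and arteriolar capillary transcripts were lower in cycling ECs. Of 16 arterial genes tested, 10 fell and none rose (median -0.84), against 13% and 16.5% of all genes. Hey1, a Notch-induced transcription factor of arterial identity, stood at 43.9, 37.4, 21.5 and 20.6 CPM in the cycling ECs and 134, 101, 96.4 and 102 CPM in the other ECs (log2 difference -1.85, SE 0.15, adjusted p = 7.78e-11). Gja4, which encodes the arterial gap junction protein connexin 37, stood at 116, 85.7, 88.5 and 69.7 CPM in the cycling ECs and 313, 189.6, 151 and 156 CPM in the other ECs (-1.14, SE 0.10, adjusted p = 8.27e-10). Both fell in each library with no overlap between the populations. With the gate after thinning, however, Gja4 had a log2 difference of -0.50, adjusted p = 0.202. The class 3 semaphorin Sema3g, a mark of arterial ECs, stood at 14.2, 8.79, 9.57 and 7.92 CPM in the cycling ECs and 48.6, 28.5, 20.3 and 23.3 CPM in the other ECs (-1.54, SE 0.24, adjusted p = 1.29e-05). Edn1, the vasoconstrictor endothelin 1, stood at 102, 81.3, 81.4 and 79.3 CPM in the cycling ECs and 177, 189, 165 and 178 CPM in the other ECs (-1.03, SE 0.10, adjusted p = 2.33e-09). Sox17, a transcription factor needed for arterial identity, fell less, from 432, 362, 348 and 368 CPM in other to 288, 229, 289.6 and 259.9 CPM in cycling ECs (-0.49, SE 0.07, adjusted p = 8.02e-06). Tm4sf1 (log2 difference -0.88) also fell. With the gate after thinning it stood at -0.51, adjusted p = 0.223. Gja5, which encodes connexin 40, overlapped between the populations with 11.6, 11.0, 14.4 and 15.8 CPM in the cycling ECs and 31.2, 18.2, 12.96 and 10.1 CPM in the other ECs (-0.39, SE 0.30, adjusted p = 0.357). Bmx, a kinase of arterial ECs, rested on the first libraries, at 11.6, 8.79, 15.6 and 17.4 CPM in the cycling ECs and 37.6, 22.3, 15.3 and 18.4 CPM in the other ECs (-0.74, SE 0.28, adjusted p = 0.0454). Its adjusted p was 0.519 without Juvenile 1, 0.107 without Juvenile 2, 0.122 with the pairs summed and 0.295 against depth-matched other ECs. DESeq2 (adjusted p = 0.234) and the other gates did not call it either, and its log2 difference was 0.028 with the gate after thinning. Of 12 tested in the strictly gated ECs, none rose and 1 fell (median -0.28).

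Of 9 CapA genes, 7 fell (median -0.89). Of 8 tested in the strictly gated ECs, none rose and 3 fell (median -0.96). Rgcc, a regulator of cell-cycle kinases, stood at 133, 154, 149.6 and 128 CPM in the cycling ECs and 382, 394, 329 and 328 CPM in the other ECs (-1.34, SE 0.08, adjusted p = 3.63e-13). Glul, which encodes glutamine synthetase, stood at 488, 398, 453 and 474 CPM in the cycling ECs and 935, 741, 817 and 880.0 CPM in the other ECs (-0.89, SE 0.06, adjusted p = 3.53e-12). The proteoglycan gene Spock2 stood at 724, 789, 766 and 845 CPM in the cycling ECs and 1333, 1286, 1534 and 1414 CPM in the other ECs (-0.84, SE 0.06, adjusted p = 1.05e-11). For these 3 genes every cycling sum lay below every other sum. Tgfb2, a growth factor of the TGF-beta family, had the lowest level of the named CapA genes in both populations and fell by 1.3001 on the log2 scale (SE 0.156, adjusted p = 1.87e-07), from 62.5, 59.3, 74.5 and 81.9 CPM to 21.9, 19.8, 31.1 and 39.6 CPM.

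Of 10 CapV genes, 7 fell and 1 rose (median -0.31, and 5 and 1 against depth-matched ECs). Of 10 tested in the strictly gated ECs, none rose and 3 fell (median -0.57). Slc38a5, a glutamine transporter of venular capillaries, was the member that rose, with 1096, 1167, 1310.2 and 1299.7 CPM in the cycling ECs and 914, 1015, 1119 and 1092 CPM in the other ECs (0.24, SE 0.05, adjusted p = 0.00118). Tfrc, the transferrin receptor, stood at 718, 889.9, 687 and 728 CPM in the cycling ECs and 682, 825, 742 and 711 CPM in the other ECs and did not pass the test (0.02, SE 0.06, adjusted p = 0.803). Slc38a5 was higher in each library, although the sums of both populations overlapped. Its call was lost with a gate of 8 UMIs (0.17, adjusted p = 0.0566), with the gate after thinning (0.18, adjusted p = 0.0786), with no filter on low values (adjusted p = 0.0729) and without the library as a block (adjusted p = 0.0723). A further 3 CapV genes moved in the opposite direction. Itm2a stood at 2087, 1784, 2075 and 2539 CPM in the cycling ECs and 3559.9, 3609.6, 4691 and 4722 CPM in the other ECs (-0.96, SE 0.06, adjusted p = 3.28e-13). Slc7a5, the light chain of the large neutral amino acid transporter, stood at 573, 534, 531 and 644 CPM in the cycling ECs and 897, 994, 1112 and 1093 CPM in the other ECs (-0.84, SE 0.07, adjusted p = 6.46e-11), and Slco1c1, a thyroxine transporter, at 897, 802, 961 and 1043 CPM in the cycling ECs and 1243, 1204, 1495 and 1462 CPM in the other ECs (-0.55, SE 0.06, adjusted p = 1.09e-08).

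Of 14 venous genes, 5 rose and 1 fell (median 0.17, and 4 and 1 of 13 against depth-matched ECs). Of 7 tested in the strictly gated ECs, 2 rose and none fell (median 0.28). Nr2f2, the transcription factor COUP-TFII of venous identity, stood at 115, 127, 104 and 108 CPM in the cycling ECs and 82.7, 94.8, 57.5 and 57.7 CPM in the other ECs (0.67, SE 0.11, adjusted p = 2.53e-05). Icam1, an adhesion molecule for leukocytes, stood at 107, 79.1, 69.4 and 36.5 CPM in the cycling ECs and 62.2, 51.1, 20.7 and 24.3 CPM in the other ECs (0.96, SE 0.17, adjusted p = 0.000113). Both were higher in each library, and for Icam1 the populations overlapped between libraries. The gate after thinning gave Nr2f2 adjusted p = 0.0561, and without the block Icam1 had adjusted p = 0.247. Ctsc, the lysosomal protease cathepsin C, stood at 151, 147, 128 and 127 CPM in the cycling ECs and 93.2, 100.1, 84.6 and 84.4 CPM in the other ECs (0.61, SE 0.09, adjusted p = 6.00e-06), and the actin-binding thymosin gene Tmsb10 at 8169.8, 9469.9, 5636 and 4547 CPM in the cycling ECs and 6878, 7509, 4921 and 4335 CPM in the other ECs (0.21, SE 0.05, adjusted p = 0.000995). The call of Tmsb10 was lost with the gate after thinning (0.07, adjusted p = 0.475), with the gate on the S and G2/M lists (0.08, adjusted p = 0.156) and with no filter (adjusted p = 0.0799). Flrt2, an adhesion and guidance receptor, rose by 0.51, SE 0.14, adjusted p = 0.00655. Its levels of 74.9, 48.3, 69.4 and 72.9 CPM and 48.6, 51.1, 46.2 and 45.6 CPM overlapped. Its adjusted p was 0.073 without Juvenile 4 and 0.392 against depth-matched ECs. DESeq2 and the other 3 gates did not call it. Ephb4, the venous receptor for ephrin B2, did not pass the test at 90.3, 72.5, 79.0 and 71.3 CPM in the cycling ECs and 82.7, 83.3, 64.5 and 66.8 CPM in the other ECs (0.10, SE 0.12, adjusted p = 0.55). Vwf, the clotting protein von Willebrand factor, was the venous gene that fell, at 166, 231, 103 and 84.0 CPM in the cycling ECs and 278, 219, 154 and 168 CPM in the other ECs (-0.54, SE 0.15, adjusted p = 0.0239). It had an adjusted p of 0.0991 without Juvenile 1 and 0.0865 without Juvenile 3, 0.19 with a gate of 8 UMIs and 0.174 with the gate on the S and G2/M lists.

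Tip cell transcripts were low in the cycling cells. Of 14 tip genes tested, 11 fell and none rose (median -1.07), and against depth-matched other ECs the counts were again 11 and none. Of 8 tested in the strictly gated ECs, none rose and 6 fell (median -1.91). Angpt2, the Tie2 ligand that loosens vessels, stood at 14.2, 2.20, 9.57 and 4.75 CPM in the cycling ECs and 46.3, 47.8, 41.0 and 36.3 CPM in the other ECs (-2.33, SE 0.26, adjusted p = 5.08e-08). Dll4, the Notch ligand of tip cells, stood at 45.2, 43.9, 41.9 and 33.3 CPM in the cycling ECs and 118, 107, 103 and 101 CPM in the other ECs (-1.38, SE 0.12, adjusted p = 9.94e-10). Adm, the vasodilator adrenomedullin, stood at 40.01, 37.4, 29.9 and 38.0 CPM in the cycling ECs and 94.9, 81.3, 119.7 and 115 CPM in the other ECs (-1.54, SE 0.14, adjusted p = 1.67e-09), and Mcam, an adhesion molecule, at 36.1, 15.4, 25.1 and 11.1 CPM in the cycling ECs and 70.0, 72.2, 43.4 and 39.9 CPM in the other ECs (-1.26, SE 0.20, adjusted p = 1.17e-05). For these 4 genes no cycling sum reached the lowest sum of the other ECs. Cd34, a sialomucin of sprouting ECs, stood at 438, 378, 512 and 498 CPM in the cycling ECs and 801, 819.7, 1009 and 964 CPM in the other ECs (-0.98, SE 0.06, adjusted p = 1.12e-12). Apln, the ligand apelin, stood at 125.2, 138, 86.1 and 82.4 CPM in the cycling ECs and 199, 191, 241 and 211 CPM in the other ECs (-0.9999, SE 0.17, adjusted p = 0.00266). Its log2 difference was -0.99, adjusted p = 0.0895, with the library pairs summed and -1.47, adjusted p = 0.115, with the gate after thinning. Esm1, a proteoglycan secreted by tip cells, did not reach the filter on low values, with 0, 0, 0 and 1 UMI in cycling and 140, 67, 16 and 76 UMIs in other ECs.

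Single cells were also counted by class, at 1500 UMIs per cell and at least 2 UMIs of a class. Arterial transcripts (10 genes, among them Gja4, Gja5 and Hey1) marked 8.47%, 16.7%, 7.79% and 8.93% of cycling ECs and 26.8%, 25.7%, 14.98% and 17.1% of other ECs, against 1.753%, 3.29%, 2.17% and 1.58% of microglia, a background. The mean difference was -10.7 percentage points (SD 5.15, n = 4 libraries), in the same direction in each. Tip transcripts (Mcam, Apln, Esm1, Angpt2 and Kcne3) marked 3.39%, 0%, 2.60% and 1.79% of cycling ECs, where 0 of 36 allows up to 8.33%, and 10.3%, 9.29%, 11.2% and 10.2% of other ECs, with none among microglia, a difference of -8.31 points (SD 1.01). Slc38a5 and Tfrc marked 52.5%, 72.2%, 70.1% and 66.1% of cycling and 53.5%, 60.6%, 62.2% and 60.3% of other ECs, and at most 0.195% of microglia, a difference of 6.08 points (SD 5.30) with Juvenile 1 on the other side of zero. Exact sign-flip permutation tests gave two-sided p-values of 0.125, 0.125 and 0.25, where 0.125 is the smallest that 4 pairs allow. They took the libraries as 4 samples, although Juvenile 1 resembled Juvenile 2 and Juvenile 3 resembled Juvenile 4. With fewer samples the smallest p-value is larger. Without thinning, where cycling cells are deeper, arterial transcripts marked 40.7%, 50%, 27.3% and 21.4% of cycling and 51.8%, 53.03%, 35.1% and 34.6% of other ECs. Unthinned tip shares were 44.1%, 38.9%, 19.5% and 28.6% in cycling and 31.9%, 39.2%, 26.5% and 25.6% in other ECs, a mean difference of 1.96 points, and those of Slc38a5 and Tfrc 86.1% to 87.5% and 78.5% to 83.7%.

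**Figure D4:**
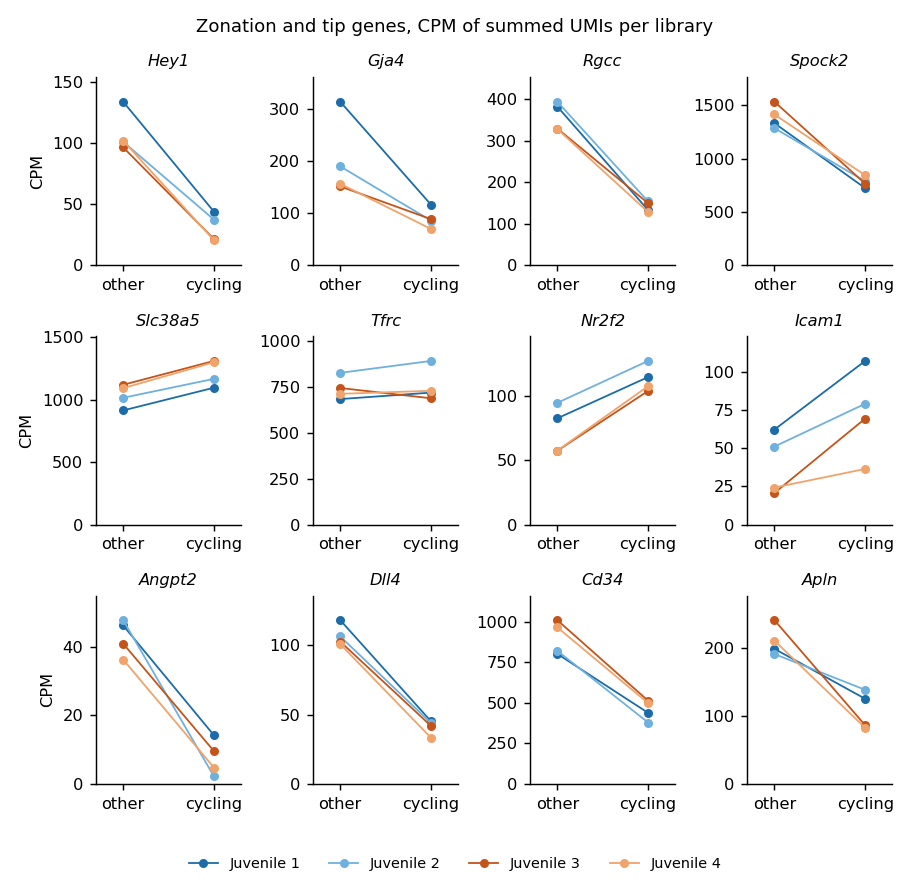
CPM (vertical axes, from 0) of 12 zonation and tip genes in the other and the cycling ECs of each juvenile library, joined by a line per library. Hey1, Gja4, Rgcc, Spock2, Angpt2, Dll4, Cd34 and Apln fall in all 4 libraries, Slc38a5, Nr2f2 and Icam1 rise in all 4, and Tfrc lies between 682 and 889.9 CPM in both populations.

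Of 12 tight junction genes other than Cldn5, which chose the ECs, 1 rose and 4 fell (median -0.20). Of 9 tested in the strictly gated ECs, 1 rose and none fell (median -0.22). Ocln, which encodes occludin, stood at 186, 171, 194 and 173 CPM in the cycling ECs and 223, 212, 234 and 245 CPM in the other ECs (-0.33, SE 0.08, adjusted p = 0.00126). The gate after thinning gave it adjusted p = 0.051. Esam, a junctional adhesion molecule, stood at 920.2, 874, 1041 and 1129 CPM in the cycling ECs and 1284, 1308, 1568 and 1535 CPM in the other ECs (-0.52, SE 0.05, adjusted p = 1.80e-08). Tjp1, which encodes the scaffold ZO-1, went the other way, at 217, 211, 193 and 238 CPM in the cycling ECs and 188, 163, 153 and 153 CPM in the other ECs (0.38, SE 0.08, adjusted p = 0.00053), with an adjusted p of 0.059 against depth-matched ECs. Of 24 transporters, 16 fell and 1 rose (median -0.40, and 14 and 1 against depth-matched ECs). Of 21 tested in the strictly gated ECs, none rose and 6 fell (median -0.66). Slco1a4, an organic anion transporter of the barrier, stood at 147, 165, 162 and 199.7 CPM in the cycling ECs and 506, 423, 594 and 619 CPM in the other ECs (-1.68, SE 0.08, adjusted p = 2.98e-15). Mfsd2a, the carrier of docosahexaenoic lipids that also restrains transcytosis, stood at 299, 286, 328 and 358 CPM in the cycling ECs and 647, 629, 797 and 762 CPM in the other ECs (-1.16, SE 0.07, adjusted p = 8.99e-14). Both were lower in each library by more than the spread between libraries. Slc2a1, the glucose transporter GLUT1, fell less, at 604, 573, 669 and 664 CPM in the cycling ECs and 791, 711, 914 and 967 CPM in the other ECs (-0.43, SE 0.06, adjusted p = 2.70e-06). Slc3a2, the heavy chain partner of Slc7a5, stood at 942, 903, 926 and 992 CPM in the cycling ECs and 1329, 1406, 1669 and 1688 CPM in the other ECs (-0.69, SE 0.06, adjusted p = 5.19e-10). The efflux pump gene Abcb1a stood at 256, 218, 195 and 204 CPM in the cycling ECs and 289, 230.4, 268 and 272 CPM in the other ECs (-0.29, SE 0.08, adjusted p = 0.00534), and its adjusted p was 0.063 without Juvenile 3.

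Of 8 transcytosis genes 3 fell and none rose. Of 7 tested in the strictly gated ECs, none rose and 1 fell (median -0.0016). Cav1, which encodes caveolin 1, stood at 200.05, 199.9, 187 and 189 CPM in the cycling ECs and 278, 250.3, 236 and 243 CPM in the other ECs (-0.38, SE 0.07, adjusted p = 0.000231). Cav2, its partner, fell by 0.479 on the log2 scale (adjusted p = 2.15e-05), but had an adjusted p of 0.168 against depth-matched ECs. Plvap, the diaphragm protein of leaky vessels, was set by 1 library, at 155, 2.20, 9.57 and 25.4 CPM in the cycling ECs and 99.5, 74.0, 5.66 and 16.6 CPM in the other ECs (0.05, SE 0.74, adjusted p = 0.974). It was higher in cycling ECs of Juvenile 1, 3 and 4 and lower in Juvenile 2, and without Juvenile 2 it passed the test (adjusted p = 0.00428). With the gate after thinning it was called lower, at -3.28, adjusted p = 0.00193.

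Signaling genes were compared by pathway. Wnt signaling builds and maintains the barrier, and of its 20 genes 1 rose and 6 fell (median -0.15, and 1 and 4 against depth-matched ECs). Of 12 tested in the strictly gated ECs, none rose and 1 fell (median -0.34). Its target Axin2 did not pass the test at 33.6, 28.6, 25.1 and 22.2 CPM in the cycling ECs and 34.1, 23.2, 24.3 and 20.03 CPM in the other ECs (0.09, SE 0.19, adjusted p = 0.771), nor did the Wnt transcription factor Lef1 at 147, 160.4, 133 and 147 CPM in the cycling ECs and 146, 148, 162 and 163 CPM in the other ECs (-0.09, SE 0.09, adjusted p = 0.471) or Apcdd1, a target and inhibitor (-0.04, SE 0.32, adjusted p = 0.946). Nkd1, a feedback inhibitor, rose at 564, 444, 542 and 601 CPM in the cycling ECs and 409, 410.3, 454 and 451 CPM in the other ECs (0.32, SE 0.07, adjusted p = 0.000554). The gate after thinning gave it adjusted p = 0.0618. The receptor Fzd6 fell, at 89.1, 96.7, 71.8 and 87.2 CPM in the cycling ECs and 154, 153, 158 and 161 CPM in the other ECs (-0.88, SE 0.10, adjusted p = 6.52e-08), as did Tspan12, a co-receptor for Norrin, with a log2 difference of -0.47. Thus, of the Wnt genes named here, a receptor and a co-receptor fell, Axin2, Lef1 and Apcdd1 were not called and Nkd1 rose. The other Wnt genes that fell are not described.

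Of 14 genes of the VEGF, angiopoietin and apelin pathways other than Flt1, which chose the ECs, 9 fell and 1 rose (median -0.44), and the tip ligands above are among the 9. Of 9 tested in the strictly gated ECs, none rose and 2 fell (median -0.62). Kdr, the main receptor for VEGF-A, stood at 653, 633, 501 and 610.2 CPM in the cycling ECs and 745, 704, 706 and 686 CPM in the other ECs (-0.25, SE 0.07, adjusted p = 0.00365). Its adjusted p was 0.0706 without Juvenile 3. Nrp1, its co-receptor, stood at 245, 231, 213 and 206 CPM in the cycling ECs and 397, 341, 371 and 352 CPM in the other ECs (-0.71, SE 0.07, adjusted p = 1.01e-08), and the angiopoietin receptor partner Tie1 at 222, 222, 232 and 204 CPM in the cycling ECs and 324, 327, 299.8 and 302 CPM in the other ECs (-0.50, SE 0.07, adjusted p = 3.97e-06). These 3 receptors were lower in the cycling ECs of every library. Tek (Tie2) did not pass the test at 240.1, 171, 227 and 269 CPM in the cycling ECs and 298, 242, 253 and 247 CPM in the other ECs (-0.19, SE 0.08, adjusted p = 0.0911), but did without Juvenile 4 (adjusted p = 0.00992). Aplnr, the receptor for apelin, was the gene that rose, at 391, 486, 525 and 471 CPM in the cycling ECs and 362, 378, 394 and 384 CPM in the other ECs (0.30, SE 0.07, adjusted p = 0.00115), while its ligand Apln fell. The call of Aplnr was lost with a gate of 8 UMIs (0.18, adjusted p = 0.0688) and with the gate on the S and G2/M lists (0.15, adjusted p = 0.367).

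Of 11 Notch genes, 8 fell and none rose (median -0.68). Of 8 tested in the strictly gated ECs, none rose and 2 fell (median -0.68). Besides Dll4 and Hey1, the receptor Notch4 stood at 37.4, 28.6, 29.9 and 34.9 CPM in the cycling ECs and 70.9, 66.9, 60.5 and 55.5 CPM in the other ECs (-0.94, SE 0.15, adjusted p = 2.06e-05). Hes1, a Notch target, stood at 648, 883, 591 and 521 CPM in the cycling ECs and 990.0, 974, 845 and 779 CPM in the other ECs (-0.46, SE 0.07, adjusted p = 7.92e-06). Lfng, a glycosyltransferase that tunes the receptors, stood at 43.9, 35.2, 33.5 and 19.0 CPM in the cycling ECs and 76.1, 69.6, 51.6 and 48.7 CPM in the other ECs (-0.88, SE 0.16, adjusted p = 7.50e-05). The 3 Notch genes not called were Jag1, Rbpj and Notch1. The receptor Notch1 overlapped at low levels, with 15.5, 8.79, 4.79 and 1.58 CPM in the cycling ECs and 14.2, 14.7, 10.6 and 9.61 CPM in the other ECs (-0.68, SE 0.35, adjusted p = 0.153), although it passed the test without Juvenile 1 (adjusted p = 0.0408).

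Of 16 BMP, TGF-beta and Id genes, 7 fell and none rose (median -0.27). The BMP receptor Acvrl1 (ALK1) stood at 200.05, 185, 188 and 169.6 CPM in the cycling ECs and 268, 247, 287 and 276 CPM in the other ECs (-0.54, SE 0.08, adjusted p = 3.04e-06), and its co-receptor endoglin, Eng, at 741, 650.4, 700.0 and 761 CPM in the cycling ECs and 901, 879.9, 1006 and 942 CPM in the other ECs (-0.39, SE 0.06, adjusted p = 1.06e-05). Tmem100, a target of ALK1, stood at 37.4, 22.0, 15.6 and 50.7 CPM in the cycling ECs and 104, 64.6, 76.6 and 102 CPM in the other ECs (-1.504, SE 0.16, adjusted p = 2.99e-08). The inhibitory Smad6 stood at 23.2, 17.6, 5.98 and 19.0 CPM in the cycling ECs and 44.0, 31.1, 20.6 and 25.4 CPM in the other ECs (-0.92, SE 0.22, adjusted p = 0.00227). Id1, a BMP-induced inhibitor of differentiation factors, stood at 354, 309.8, 330.2 and 363 CPM in the cycling ECs and 513, 477, 422 and 444 CPM in the other ECs (-0.45, SE 0.07, adjusted p = 1.36e-05), and Id3 at 858, 679, 693 and 655 CPM in the cycling ECs and 1019.8, 923, 765 and 795 CPM in the other ECs (-0.28, SE 0.06, adjusted p = 0.00084), with an adjusted p of 0.0713 against depth-matched ECs and 0.108 with the gate after thinning. Of 10 tested in the strictly gated ECs, none was called (median -0.31).

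Of 7 insulin and IGF genes, 4 fell and none rose (median -0.96), and 6 fell against depth-matched ECs. Of 5 tested in the strictly gated ECs, none rose and 1 fell (median -0.74). Igfbp7, a secreted IGF-binding protein, stood at 1689, 1393, 1447 and 1295 CPM in the cycling ECs and 3269, 3094, 3171 and 3102 CPM in the other ECs (-1.12, SE 0.05, adjusted p = 3.37e-15). The insulin receptor Insr stood at 49.0, 30.8, 37.1 and 42.8 CPM in the cycling ECs and 89.1, 75.1, 74.2 and 76.1 CPM in the other ECs (-0.96, SE 0.14, adjusted p = 3.02e-06) and Igf1r at 89.1, 90.1, 86.1 and 88.8 CPM in the cycling ECs and 106, 118, 155 and 142 CPM in the other ECs (-0.56, SE 0.11, adjusted p = 0.000154). Igf2, the growth factor, stood at 7.74, 11.0, 19.1 and 49.1 CPM in the cycling ECs and 41.9, 47.5, 76.1 and 71.8 CPM in the other ECs (-1.495, SE 0.24, adjusted p = 0.000209). With ECs limited to those whose endothelial UMIs outnumbered other types' markers, an alternative chosen after the data were seen, the log2 difference of Igf2 was -0.28 (adjusted p = 0.46). Igf2 is also made in choroid plexus and fibroblasts, and the part of their transcripts in either value was not tested.

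Of 18 endothelial transcription factors, 11 fell and 1 rose (median -0.34). Of 16 tested in the strictly gated ECs, none rose and 1 fell (median -0.22). Ebf1 stood at 154, 109.9, 151 and 109 CPM in the cycling ECs and 259, 196, 204 and 223 CPM in the other ECs (-0.74, SE 0.09, adjusted p = 2.53e-07), and the forkhead factor Foxq1 at 307, 301, 257 and 355 CPM in the cycling ECs and 459, 425, 509 and 471 CPM in the other ECs (-0.62, SE 0.08, adjusted p = 1.30e-06). Sox18, a paralog of Sox17, fell by 0.60 on the log2 scale and Ets1 by 0.48. The flow-induced Klf2 stood at 1283, 923, 1003 and 1127 CPM in the cycling ECs and 1338, 1457, 1339 and 1354 CPM in the other ECs (-0.35, SE 0.08, adjusted p = 0.00213). Klf4, its paralog, was near the threshold, at 248, 198, 166 and 162 CPM in the cycling ECs and 252, 249.5, 190.3 and 202 CPM in the other ECs (-0.21, SE 0.08, adjusted p = 0.0469). It had adjusted p-values of 0.136, 0.117 and 0.128 without Juvenile 2, 3 and 4 in turn and 0.122 with the pairs summed. DESeq2 (adjusted p = 0.213) and the other 3 gates did not call Klf4. Of 15 immediate-early genes, which tissue dissociation can also induce, 11 fell and none rose (median -0.34, and 1 higher and 7 lower against depth-matched ECs). Of 15 tested in the strictly gated ECs, none rose and 2 fell (median -0.0049). Junb stood at 759, 675, 422 and 409 CPM in the cycling ECs and 1173, 1005, 682 and 652 CPM in the other ECs (-0.64, SE 0.06, adjusted p = 1.61e-09), and the matricellular Cyr61 at 287, 308, 287 and 296 CPM in the cycling ECs and 491, 495, 535 and 552 CPM in the other ECs (-0.82, SE 0.07, adjusted p = 2.23e-10). Ier2 fell by 0.44 on the log2 scale.

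Of 21 basement membrane and matrix genes tested, 12 fell, 1 rose and 8 were not called (median -0.48). Of 15 tested in the strictly gated ECs, none rose and 5 fell (median -0.44). Sparc, a collagen-binding secreted protein, stood at 3855, 3225, 3688 and 3543 CPM in the cycling ECs and 5459.8, 5385, 5953 and 5902 CPM in the other ECs (-0.67, SE 0.05, adjusted p = 2.19e-11). Nid1, the linker nidogen, stood at 115, 119, 106 and 105 CPM in the cycling ECs and 179, 173, 177 and 161 CPM in the other ECs (-0.64, SE 0.09, adjusted p = 1.58e-06). The laminin chain genes Lama4 and Lamb1 fell, with log2 differences of -0.76 and -1.146. Fn1, fibronectin, was the member that rose, at 1042, 1022, 1195 and 1076 CPM in the cycling ECs and 917, 786, 842 and 870.1 CPM in the other ECs (0.34, SE 0.06, adjusted p = 4.91e-05), with every cycling sum above every other sum.

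Metabolic genes split by pathway. In nucleotide synthesis and one-carbon metabolism, which feed DNA replication, 22 of 30 genes rose and 1 fell (median 0.81). Against depth-matched ECs 18 of 28 rose. In cycling ECs with more S UMIs the list summed to 3656, 2769, 3775 and 3609 CPM. In those with more G2/M UMIs it summed to 2590, 2350, 2741 and 2788 CPM. The list thus varied with the cycle, and what part the choice of cycling cells had in its rise was not tested. Mthfd2, the mitochondrial folate enzyme of proliferating cells, stood at 25.8, 39.5, 29.9 and 33.3 CPM in the cycling ECs and 2.60, 2.64, 2.23 and 4.07 CPM in the other ECs (3.44, SE 0.28, adjusted p = 1.81e-10). Psat1, of the serine synthesis pathway, stood at 82.6, 90.1, 90.9 and 109 CPM in the cycling ECs and 24.0, 20.5, 18.3 and 22.6 CPM in the other ECs (2.13, SE 0.14, adjusted p = 2.44e-12). Dck, the deoxycytidine kinase of nucleoside salvage, stood at 54.2, 57.1, 77.8 and 44.4 CPM in the cycling ECs and 12.4, 16.4, 12.5 and 11.9 CPM in the other ECs (2.17, SE 0.18, adjusted p = 2.74e-10). For all 3 the lowest cycling sum lay above the highest sum of the other ECs. Nme1, a nucleoside diphosphate kinase, stood at 345, 347, 379 and 361 CPM in the cycling ECs and 185, 207, 204 and 199 CPM in the other ECs (0.85, SE 0.07, adjusted p = 1.34e-10), and Impdh2, the rate-limiting enzyme of guanine nucleotide synthesis, at 265, 270.3, 282 and 250.4 CPM in the cycling ECs and 143, 158, 159 and 155 CPM in the other ECs (0.80, SE 0.07, adjusted p = 1.25e-09). Of 9 tested in the strictly gated ECs, 2 rose and none fell (median 0.54). Prps2, a phosphoribosyl pyrophosphate synthetase, was the gene that fell, at 7.74, 15.4, 27.5 and 26.9 CPM in the cycling ECs and 17.4, 27.6, 39.0 and 37.3 CPM in the other ECs (-0.64, SE 0.20, adjusted p = 0.0165). It had an adjusted p of 0.0702 without Juvenile 1 and 0.118 by DESeq2, and its log2 difference was 0.44 in the ECs whose endothelial UMIs outnumbered other types' markers. Of 7 pentose phosphate genes, 3 rose and 1 fell, and Tkt, transketolase, stood at 195, 187, 220.2 and 182 CPM in the cycling ECs and 129, 144, 143 and 144 CPM in the other ECs (0.49, SE 0.08, adjusted p = 2.61e-05).

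Glycolysis did not move as a block. Of 17 genes tested, 2 rose and 4 fell (median -0.17). Of 12 tested in the strictly gated ECs, 1 rose and 1 fell (median -0.24). Gapdh stood at 897, 824, 739 and 653 CPM in the cycling ECs and 449, 505, 432 and 391 CPM in the other ECs (0.81, SE 0.06, adjusted p = 7.33e-11) and Tpi1, triosephosphate isomerase, at 178, 187, 244 and 298 CPM in the cycling ECs and 135, 149, 186 and 201 CPM in the other ECs (0.43, SE 0.08, adjusted p = 5.96e-05). Aldoa, the aldolase of the step before them, fell, at 236, 292, 318 and 295 CPM in the cycling ECs and 465, 486, 571 and 583 CPM in the other ECs (-0.89, SE 0.07, adjusted p = 6.21e-11). The lactate transporter Slc16a1 stood at 1631, 1571, 1886 and 2127 CPM in the cycling ECs and 1802, 1787, 2419 and 2474 CPM in the other ECs (-0.23, SE 0.05, adjusted p = 0.00132) and had an adjusted p of 0.0704 against depth-matched ECs. Ldha, which makes lactate, did not pass the test at 622, 554, 739 and 737 CPM in the cycling ECs and 539, 538, 722 and 698 CPM in the other ECs (0.09, SE 0.06, adjusted p = 0.285). The pyruvate kinase gene Pkm (0.06, SE 0.06, adjusted p = 0.495) and Pfkfb3, an activator of glycolytic flux in sprouting vessels (-0.37, SE 0.29, adjusted p = 0.371), did not either. Hk2, a hexokinase, did not reach the filter on low values, with 1, 0, 1 and 1 UMI in cycling and 12, 3, 9 and 4 UMIs in other ECs.

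Among mitochondrial genes, the calls depended on the ECs compared. Of 22 genes of the tricarboxylic acid cycle, 8 rose and none fell (median 0.18), and 4 rose against depth-matched ECs. Of 18 tested in the strictly gated ECs, 1 rose and none fell (median 0.13). Idh2, the mitochondrial isocitrate dehydrogenase, stood at 134, 98.9, 133 and 109 CPM in the cycling ECs and 59.3, 71.0, 69.9 and 64.8 CPM in the other ECs (0.87, SE 0.11, adjusted p = 6.30e-07), and Fh1, fumarase, at 77.4, 74.7, 86.1 and 88.8 CPM in the cycling ECs and 59.3, 53.7, 55.4 and 59.1 CPM in the other ECs (0.53, SE 0.12, adjusted p = 0.0011). Of 65 nuclear genes of oxidative phosphorylation, 19 rose and 5 fell (median 0.09), but against depth-matched ECs 6 of 64 rose and 11 fell (median -0.03), where 1311 of all 8663 genes rose and 1281 fell. Against these matched ECs the choroid plexus markers had a median of -2.05, lower than the -1.36 over all other ECs, and their part was not tested. Ndufa8, a subunit of complex I, rose, at 456, 398, 564 and 515 CPM in the cycling ECs and 304, 321, 343 and 353 CPM in the other ECs (0.55, SE 0.07, adjusted p = 5.36e-07), and Atp5b, a subunit of ATP synthase, by 0.32 on the log2 scale. Other complex I subunits fell, Ndufa13 by 0.36, Ndufa1 by 0.35, Ndufa6 by 0.32 and Ndufa7 by 0.23. In ECs whose endothelial UMIs outnumbered other types' markers 30 of 65 rose and 3 fell (median 0.18), and Ndufa1 had adjusted p = 0.191. Of 60 tested in the strictly gated ECs, none was called (median 0.04). Of 8 genes encoded by the mitochondrial genome, 6 fell and none rose (median -0.23, and 7 against depth-matched ECs). None of the 8 was called in ECs whose endothelial UMIs outnumbered other types' markers (median -0.066) or in the strictly gated ECs (median 0.078). The complex I gene mt-Nd5 stood at 136, 160.4, 163 and 178 CPM in the cycling ECs and 198, 213, 222 and 236 CPM in the other ECs (-0.45, SE 0.08, adjusted p = 3.89e-05) and mt-Nd2 at 586, 626, 723 and 808 CPM in the cycling ECs and 716, 721, 958 and 1015 CPM in the other ECs (-0.31, SE 0.06, adjusted p = 0.000163). They had adjusted p-values of 0.624 and 0.127 in the ECs whose endothelial UMIs outnumbered other types' markers. Among 16 fatty acid oxidation genes 2 rose and 4 fell, with Acadl, an acyl-CoA dehydrogenase, at 218, 174, 226 and 227 CPM in the cycling ECs and 154, 156, 165 and 164 CPM in the other ECs (0.41, SE 0.08, adjusted p = 0.000175). Of 20 genes of sterol and fatty acid synthesis, Scd2, a desaturase, was the only one called and fell by 0.77 on the log2 scale. Among the strictly gated ECs none was called of the 3 pentose phosphate, 14 fatty acid oxidation and 5 sterol and fatty acid synthesis genes tested there.

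**Figure D5:**
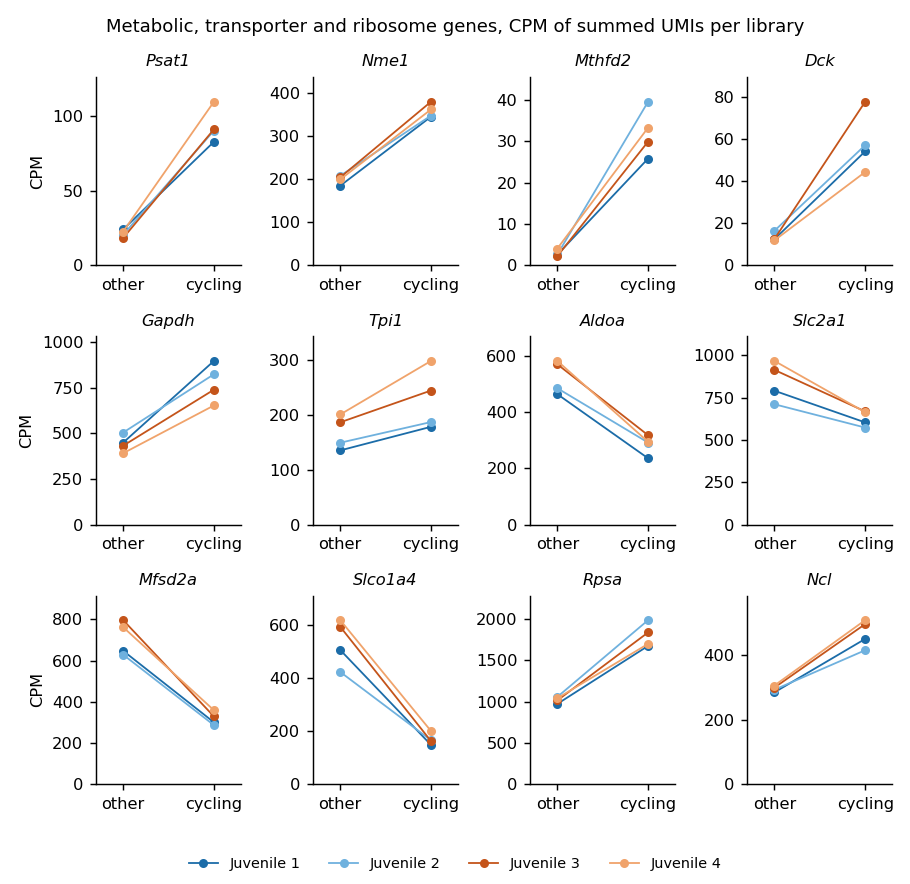
CPM (vertical axes, from 0) of 12 metabolic, transporter and ribosome genes in the other and the cycling ECs of each juvenile library, joined by a line per library. Psat1, Nme1, Mthfd2, Dck, Gapdh, Tpi1, Rpsa and Ncl rise and Aldoa, Slc2a1, Mfsd2a and Slco1a4 fall in all 4 libraries.

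Ribosomal genes were higher, except among the strictly gated ECs, which left 3, 1, 17 and 14 cycling cells. Of 83 ribosomal protein genes, 70 rose and none fell (median 0.33), and 52 of 82 rose against depth-matched ECs. Of 79 tested in the strictly gated ECs, none rose and 1 fell (median -0.00055). In ECs whose endothelial UMIs outnumbered other types' markers, 70 of 83 rose and none fell (median 0.31). Rpsa stood at 1678, 1991, 1841 and 1702 CPM in the cycling ECs and 972, 1057, 1014 and 1041 CPM in the other ECs (0.82, SE 0.05, adjusted p = 2.44e-12) and Rps2 at 3298, 3652, 3422 and 3132 CPM in the cycling ECs and 2112, 2198, 2241 and 2314 CPM in the other ECs (0.61, SE 0.05, adjusted p = 4.58e-10). Many of these genes have processed pseudogenes whose reads the authors' counting could have split from them. Of 22 genes of ribosome biogenesis and Myc, 15 rose and none fell (median 0.64). Of 8 tested in the strictly gated ECs, none was called (median 0.43). Where endothelial UMIs outnumbered other types' markers, 15 of 22 rose and none fell (median 0.63). Npm1 (nucleophosmin) stood at 825, 896, 917 and 762 CPM in the cycling ECs and 478, 518, 488 and 523 CPM in the other ECs (0.76, SE 0.06, adjusted p = 2.79e-10), and Ncl (nucleolin) at 450.4, 415, 497 and 509 CPM in the cycling ECs and 284, 293, 299 and 306 CPM in the other ECs (0.66, SE 0.07, adjusted p = 9.18e-09), both abundant nucleolar proteins. Nop58, a protein of the particles that methylate ribosomal RNA, stood at 90.3, 48.3, 85.0 and 68.2 CPM in the cycling ECs and 35.6, 30.5, 33.7 and 34.4 CPM in the other ECs (1.14, SE 0.14, adjusted p = 4.12e-07), and Srm, spermidine synthase and a Myc target, at 92.9, 129.6, 110.1 and 129.97 CPM in the cycling ECs and 62.8, 72.5, 59.3 and 56.5 CPM in the other ECs (0.88, SE 0.11, adjusted p = 6.29e-07). The gate after thinning gave Srm adjusted p = 0.0665. Myc itself stood at 71.0, 43.9, 41.9 and 52.3 CPM in the cycling ECs and 34.1, 35.8, 21.6 and 23.8 CPM in the other ECs (0.90, SE 0.16, adjusted p = 8.25e-05), with no overlap between the populations.

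Of 10 p53 target genes tested outside the cell-cycle lists, 3 fell, none rose and 7 were not called (median -0.26). Of 5 tested in the strictly gated ECs, none rose and 1 fell (median -0.71). Plk2 stood at 448, 323, 328 and 357 CPM in the cycling ECs and 641, 565, 449.7 and 499 CPM in the other ECs (-0.56, SE 0.07, adjusted p = 3.35e-07), and the growth arrest genes Gadd45a and Gadd45b fell by 0.65 and 0.81 on the log2 scale. For Gadd45a the gate after thinning gave adjusted p = 0.0705. Of 16 MHC class I and interferon genes, 2 rose, 4 fell and 10 were not called (median -0.08). Of 10 tested in the strictly gated ECs, none was called (median 0.065). Ifitm2, an antiviral membrane protein, stood at 398, 319, 330.2 and 327 CPM in the cycling ECs and 299.7, 291, 222 and 242 CPM in the other ECs (0.40, SE 0.07, adjusted p = 0.000133), and Ly6e, a membrane-anchored interferon gene, rose by 0.30. Ly6c1, a surface marker of brain ECs, fell, at 839, 675, 1064 and 1181 CPM in the cycling ECs and 1391, 1151, 2078 and 2083 CPM in the other ECs (-0.82, SE 0.06, adjusted p = 4.67e-12).

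Outside the lists, the 10 genes with the largest log2 difference in each direction were taken among called genes that reached 50 CPM in the higher population, and some are described here. Among those that rose were Fam64a at 165, 127, 158 and 173 CPM in the cycling ECs and 2.60, 1.47, 1.19 and 0.489 CPM in the other ECs, the mitotic kinase Pbk at 191, 160.4, 205 and 236 CPM in the cycling ECs and 3.76, 2.05, 1.49 and 1.96 CPM in the other ECs, the abscission gene Cep55 at 59.4, 54.9, 69.4 and 90.3 CPM in cycling ECs, and the DNA glycosylase Neil3 at 67.1, 63.7, 81.4 and 66.6 CPM. These 4 genes are given without a test, since genes of division follow the gate. Genes that fell had more varied roles. Slc1a1, a glutamate transporter, stood at 5.16, 11.0, 11.96 and 6.34 CPM in the cycling ECs and 42.2, 46.4, 62.3 and 58.8 CPM in the other ECs (-2.63, SE 0.23, adjusted p = 5.75e-10). Tnfrsf11b, the decoy receptor osteoprotegerin, stood at 12.9, 11.0, 7.18 and 4.75 CPM in the cycling ECs and 41.4, 54.3, 59.2 and 45.9 CPM in the other ECs (-2.49, SE 0.24, adjusted p = 4.26e-09). Ddc, which decarboxylates L-DOPA as part of the enzymatic barrier, stood at 5.16, 13.2, 19.1 and 19.0 CPM in the cycling ECs and 52.4, 52.8, 74.1 and 75.1 CPM in the other ECs (-2.19, SE 0.20, adjusted p = 1.60e-09). For these 3 no cycling sum reached the lowest sum of the other ECs. Apod, a lipid-binding apolipoprotein, stood at 73.6, 50.5, 52.6 and 71.3 CPM in the cycling ECs and 217, 248, 246 and 231 CPM in the other ECs (-1.91, SE 0.11, adjusted p = 1.48e-13). It had adjusted p = 0.0581 against depth-matched ECs without gate UMIs. Megf6 fell by 1.95, the semaphorin Sema3c by 1.65 and the growth factor Pdgfd by 1.64.

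The same contrast was made in 321 cycling of 3894 juvenile microglia to see which changes the other cell type shared. Over 11076 genes without the cell-cycle lists, the effect of cycling differed between ECs and microglia for 632 (5.71%), 459 more positive and 173 more negative in ECs. With DESeq2's size factors in place of TMM the calls were 531, of which 229 were more positive and 302 more negative, so the balance of directions depended on the scaling. With TMM, 382 genes differed without Juvenile 3 and 399 without Juvenile 4. The change of scaling also moved the median difference of all genes from 0.15 to -0.0033. Of 83 ribosomal protein genes, 70 were more positive in ECs with TMM and 35 with the size factors. None was more negative (median 0.44 and 0.29). Of 22 genes of ribosome biogenesis and Myc, 5 and 3 were more positive and none more negative (median 0.32 and 0.17). Many endothelial genes have almost no transcripts in microglia, and where the microglial level was under 10% of that in ECs a difference rests on the EC effect and is not described. The log2 effect of Npm1 was 0.76 in ECs and 0.0671 in microglia (difference 0.68, adjusted p = 0.000109). For Rps2 it was 0.61 and -0.02 (difference 0.61, adjusted p = 1.39e-05). Mthfd2 rose in ECs by 3.44 and had an effect of 1.72 in microglia (difference 1.70, adjusted p = 0.000465). Idh2 also differed, with 0.87 and -0.24 (adjusted p = 1.34e-06). For these 4 genes the difference was called under both scalings, as it was for 3.55% of the 10550 genes with a microglial level of at least 10% of that in ECs.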

How the data were processed

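The data were 10x 3′ v2 single-cell libraries of mouse cortex. Per the labels' processing notes, the authors made the files with bcl2fastq 2.19.1.403, UMI-tools 0.5.3, STAR 2.5.3a on mm10 and featureCounts 1.6.1 (Subread). The study's methods name the same UMI-tools, STAR, mm10 and featureCounts but later versions of the tools, and which versions made the files is not settled here. What they deposited is a table of UMI counts (genes by barcodes), whole numbers with no normalization. The study's own limits on barcodes were applied, namely over 500 genes, fewer than 6000, and mitochondrial transcripts below 25%. No further filter was set on cells. Scrublet (scanpy 1.11.5, Python 3.11.15) called 0, 0, 1 and 2 of the cycling ECs doublets, which were kept.

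The members, the gate and the gene lists were chosen with earlier results of these data known. UMIs were summed per library over cycling and over other ECs and compared with edgeR 4.0.16 (R 4.3.3) by the quasi-likelihood test with TMM, filterByExpr, a robust fit and Benjamini-Hochberg adjustment over all genes tested. The library was a block, because both sums come from the same library. Cells, which are not replicates, were not tested. Named genes were the gate genes, up to 5 called genes of each list per direction by smallest p, a set of vessel genes named whatever their result, and the 10 largest changes each way outside the lists at 50 CPM or more and 1 direction in 4 of 4 libraries. Not every gene so named is described. Class shares were compared with exact permutation tests. Cycling shares, by age and against microglia, were given without the planned tests, since they count cells by the gate. For class shares each cell was thinned to 1500 UMIs. A share of 0 was given the limit of 3 counts, and exact binomial intervals were at 95%. On simulated data with 200 genes changed by 1 on the log2 scale, the comparison of cycling with other ECs recovered 72.1% of the changes that could be tested among 10222 genes, and 6.16% of its calls were false. These data were drawn from 1 mean profile with a dispersion of 0.0071, without differences between libraries or transcripts of other cell types. Both shares hold for that setting and are not the error rates of the real comparison. Alternatives were other scalings, another tool (DESeq2 1.42.0), filters, gates and libraries, other ECs matched to cycling ECs for UMIs (3 per cell), and the strictly gated ECs of the report. Those chosen after the data were seen were ECs whose endothelial marker UMIs outnumbered those of other types, depth-matched ECs with 0 gate UMIs, and near-identical libraries averaged for the share by age.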

Additional observations from a re-analysis of the deposited data

Results flagged for a closer look

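Of 141 series of 4 library values examined, 8 held a library far from the other 3, and chance gives such a value in about 1 of 20 groups. Arterial cells made up 16.7% of the cycling ECs of Juvenile 2, where 6 of 36 cells were counted, against 7.79% to 8.93% elsewhere. For Plvap the log2 ratio of cycling to other ECs was -4.55 in Juvenile 2 and 0.58 to 0.67 in the others. Flrt2 stood at -0.078 in Juvenile 2 against 0.58 to 0.67, and Acadl at 0.15 in Juvenile 2 against 0.46 to 0.49. Juvenile 3 stood apart for Kdr (-0.49 against -0.19 to -0.15), Tie1 (-0.37 against -0.56 to -0.54) and the neuronal tubulin gene Tubb3 (4.45 against 1.44 to 1.71, with 12.9, 17.6, 59.8 and 7.92 CPM in cycling ECs). Ddc stood at -3.11 in Juvenile 1 against -1.93 to -1.90.

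Of 70 genes described whose level in microglia was at least 10% of that in ECs, 14 differed in the effect of cycling between ECs and microglia at an adjusted p of 0.05 (edgeR interaction test) under both scalings, the difference being given as log2 in ECs minus microglia. Over all 10550 genes with such a level 3.55% differed by the same rule, and the 70 had mostly been named because they were called in ECs. A further 62 genes lay under this level in microglia, a limit set after the data were seen, and are left out. More negative in ECs were Lfng (-1.16) of the Notch list, Nrp1 (-0.81) of the VEGF list and the transporter gene Slc3a2 (-0.56). The vein genes Nr2f2 (1.40) and Flrt2 (2.14) were more positive, at 21.6 and 12.3 CPM in the other microglia. In the cycling microglia they rest on only 20 and 6 UMIs. So were the metabolic genes Gapdh (0.52), Idh2 (1.09), Ndufa8 (0.88), Nme1 (0.60) and Mthfd2 (1.70), and Rpsa (0.59), Rps2 (0.61), Npm1 (0.68) and Srm (1.23) of the ribosome and its assembly.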

How the results depend on the processing

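Of 120 genes of the text called in cycling against other ECs, 41 were called in the same direction under every alternative that gave them a value. Over all 132 genes and alternatives, 2322 of 2479 values stayed on their side of the threshold, 144 lost the call in the same direction, 5 gained it and 8 reversed. DESeq2 called 1130 genes higher and 770 lower. The strictly gated ECs left 3 and 1 cycling cells in Juvenile 1 and 2 and 3325 genes tested, of which 169 were higher and 155 lower, and there Tmsb10 (-0.22), Id1 (0.020), mt-Nd5 (0.30), Tkt (-0.42) and Srm (-0.23) reversed. Reversals apart, the gate after thinning lost 13 calls, gates of 8 UMIs and on the S and G2/M lists 6 each, and the strictly gated ECs 64. The gate after thinning reversed Bmx (0.028) and Plvap (-3.28), and ECs with endothelial UMIs above other types' reversed Prps2 (0.44). Without the replicate block 1382 genes were higher and 983 lower, 21 genes of the text lost their call without the block (Bmx, Slc38a5, Icam1, Vwf, Tmsb10, Abcb1a, Kdr, Hes1, Id3, Smad6, Igf2, Klf4, Junb, Tpi1, Slc16a1, Ndufa13, Ndufa7, mt-Nd2, Prps2, Ly6e and Ly6c1), and neither count moved by over 1.5 times. Leaving out each library gave 1334 to 1627 higher and 1057 to 1250 lower genes. The share difference between juvenile and adult lay between 6.61 and 8.84 points without 1 library and at 7.90 points with Adult 2 and 3 averaged or the juvenile pairs too. The EC and microglia difference was called for 382 to 592 genes without 1 library, fewest without Juvenile 3 (382) and Juvenile 4 (399). The tip difference was 1.96 points unthinned. Causes were not tested. With 36 to 77 cycling ECs per library, genes of a few CPM rest on few UMIs.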

Other observations

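Within the cycling ECs, cells with more S than G2/M transcripts and cells with more G2/M transcripts were summed apart, as values without a test. Nucleotide and one-carbon genes summed to 3656, 2769, 3775 and 3609 CPM in the S-leaning cells, to 2590, 2350, 2741 and 2788 CPM in the G2/M-leaning cells and to 1745, 1853, 1872 and 1919 CPM in the other ECs. In each library S-leaning cells thus held the most and the other ECs the least. Ribosome biogenesis genes followed the same order, with 3745, 2974, 4048 and 3609 CPM, 2646, 2744, 2533 and 2479 CPM, and 1788, 1873, 1737 and 1811 CPM. Glycolysis genes summed to 7173, 6856, 7725 and 6766 CPM in S-leaning, 5769, 5544, 6090.4 and 6408 CPM in G2/M-leaning and 6203, 6212, 7164 and 7271 CPM in other ECs, so that the other ECs lay between both in 3 of 4 libraries. Tip genes lay below the other ECs in both kinds of cycling cell, at 725 to 1348 and 694 to 1111 CPM against 1800.3 to 1945 CPM. S-leaning sums rest on 10, 6, 17 and 11 cells, and transcripts of other cell types differed between the kinds of cycling cell. In Juvenile 3 erythrocyte markers summed to 21354 CPM in S-leaning and 95.7 CPM in G2/M-leaning cells, and astrocyte markers to 845 and 227 CPM. Choroid plexus markers were lower in S-leaning cells there, at 6651 and 19639 CPM, and higher in Juvenile 4, at 50583.5 and 29348.5 CPM. Their part in these sums was not tested.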
